A study of Capra hircus with 7 samples.

Results

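The knockdown of cirRNA28250, a circular RNA, in mammary gland cells of the Lanshan dairy goat (Capra hircus) was set against the control labelled c3NC. The comparison rests on 4 of the 7 RNA-seq libraries of the series, 2 of cKDmix and 2 of c3NC, and on 11800 of the 17374 genes in the deposited table. These are the genes with at least 1 FPKM (fragments scaled to transcript length and to the mapped fragments of the library) in at least 2 of the 4 libraries. The cKDmix cells were kept in 3D culture and received virus meant to inhibit cirRNA28250, and their total RNA was sequenced. The c3NC cells shared strain, tissue, culture and RNA type; the study's design names 3NC beside the knockdown, and what the c3NC cells received is not spelled out. The other libraries are 2 that overexpress the circRNA and 1 labelled c5NC. In the fit to the deposited values they enter only through the shared estimate of spread. The other scalings of the libraries and the classes of abundance below were computed over all 7 libraries, so there they also shape the values. The labels name no cell type within the gland and leave the origin of the replicates (cultures, animals) unstated. The p-values therefore cover only the spread among these libraries, possibly a technical one. cirRNA28250 itself was not analysed here, so its level in the cKDmix libraries cannot be given.

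Circular RNAs are closed loops made when a downstream splice site joins an upstream one, and some bind microRNAs or proteins. Mammary tissue relies on signals between epithelium and stroma. Growth factors and their antagonists, the receptors that read them, the ion channels and carriers that move calcium, potassium and metals, and the transcription factors downstream are the families described here, followed by families of chromatin, repair, cilia and transport.

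The cKDmix libraries spread their signal over more genes. They held 11701 and 11853 genes at 1 FPKM or more and a summed 529676 and 476096 FPKM, against 10896 and 10941 genes and a summed 608882 and 588129 FPKM in c3NC. The median of the values above 0 was 6.15 and 6.36 FPKM in cKDmix and 4.81 and 4.96 FPKM in c3NC. Read counts are not part of the deposited table, so the depth behind each value is unknown. Of 10 fibroblast markers all were tested; COL1A1, COL1A2 and PDGFRB fell and THY1 rose, and the summed level of all 10 was 13827 and 13117 FPKM in cKDmix and 21178 and 22441 FPKM in c3NC. COL1A1 and COL1A2 lost their calls after quantile normalization and all 3 that fell after cyclic loess. None of the 5 measured luminal epithelial markers (KRT19, KRT18, ELF5, EPCAM, KRT8) passed 0.32 FPKM in these 4 libraries, and none of the 5 endothelial markers passed 0.56 FPKM. Among 7 basal or myoepithelial markers, KRT5, KRT14 and TP63 stayed at or below 0.73 FPKM, while MYLK and CNN1, genes of contractile cells, rose and ACTA2 was not called; MYLK lost its call after median ratio scaling. Pericyte and smooth muscle markers summed to 31.7 and 37.1 FPKM in cKDmix and 128 and 121 FPKM in c3NC. KCNJ8 (81.17 and 73.31 FPKM) and ABCC9 (17.65 and 15.73 FPKM) made up most of the c3NC sums. In cKDmix they had 2.65 and 1.84 FPKM (KCNJ8) and 1.32 and 2.31 FPKM (ABCC9). CSPG4 had 11.91 and 13.33 FPKM in cKDmix, against 9.27 and 8.6 in c3NC, and NOTCH3 6.49 and 9.03, against 5.61 and 6.5. In that list KCNJ8, ABCC9 and MYH11 fell, CSPG4 and NOTCH3 were not called, and RGS5, MCAM and DES stayed at or below 0.12 FPKM. Adipocyte markers summed to 18.8 and 17.9 FPKM in cKDmix and 4.28 and 5.75 FPKM in c3NC, with CIDEC, PPARG and LEP higher and PLIN1 and ADIPOQ at or below 0.76 FPKM; LEP lost its call after quantile normalization and after loess. Of 6 macrophage markers measured, CD14 fell, CD68 rose, and CSF1R, AIF1, MSR1 and TYROBP stayed at or below 0.28 FPKM. Of 6 lymphocyte markers 1 was tested and 0 were called. In bulk RNA, fewer cells of a type and less RNA per cell cannot be told apart, and the part of cell makeup in the results below was not tested.

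Across all genes, cKDmix was called higher far more often than lower on the deposited values, and this imbalance depended on how the libraries were scaled. A gene was called where the adjusted p (Benjamini-Hochberg) of a limma fit to log2(FPKM + 1) was under 0.05. Fold changes are cKDmix minus c3NC on the log2(FPKM + 1) scale, given ± SE, where weakly transcribed genes change by less than their FPKM ratio. Of 11800 genes, 4256 (36.1%) were called, 3319 higher (28.1%) and 937 lower (7.94%). After quantile normalization, which gives all libraries the same distribution, 2902 (24.6%) were called, 1434 higher (12.2%) and 1468 lower (12.4%). Scaling by the median ratio called 3769 (31.9%), 1829 higher (15.5%) and 1940 lower (16.4%), and cyclic loess called 2665 (22.6%), 1326 higher (11.2%) and 1339 lower (11.3%). Higher genes were thus 78.0% of the calls on deposited values, 49.4% after quantile normalization, 48.5% after median ratio scaling and 49.8% after loess. The median log2 fold change of all genes was 0.30, -0.02, -0.02 and -0.01 under these 4 scalings, a shift of about 0.3 over all genes. Each deposited fold change below is to be read against the median at its own abundance, given in the next paragraph. None of the genes called in both the deposited and the quantile normalized values had opposite signs, and 2231 had the same sign. Genes called in the same direction on the deposited values, after quantile normalization and after median ratio scaling numbered 2001 (17.0%), 1159 higher (9.82%) and 842 lower (7.14%); they are termed alike under the 3 scalings.

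The shift ran with abundance. In 5 classes of mean FPKM over the 7 libraries, the median log2 fold change on deposited values was 0.56, 0.50, 0.38, 0.18 and -0.17, in order of rising abundance. In the same order the share called higher was 38.5%, 36.3%, 31.1%, 22.7% and 12.1%, and the share called lower 3.77%, 4.28%, 4.02%, 8.77% and 18.9%. After quantile normalization the medians lay between 0.04 and -0.09. After median ratio scaling they still fell with abundance, from 0.32 in class 1 to -0.54 in class 5. Families of weakly transcribed genes therefore start from another background than families of abundant ones, and family counts are given on the deposited and on the quantile normalized values. Where no share stands beside a family count, it is to be read against the 28.1% higher and 7.94% lower of all genes. After quantile normalization these shares are 12.2% and 12.4%. The filter also leaned to one side. Of the genes tested, 722 passed it only through cKDmix, with both c3NC libraries under 1 FPKM, and 542 of them were called higher. Only through c3NC 99 passed, of which 63 were called lower. Among the genes ranked below, LHX8, HMGA2, NTRK2, CX3CL1, SLC40A1, KCNMB1 and SLC26A2 passed only through cKDmix, and KCNMA1 only through c3NC. The same holds for any other named gene with both values of a group under 1 FPKM. Such genes could be tested only because the other group was high. Counts also fell when single libraries were left out. Each such fit has 1 library in a group and 2 residual degrees of freedom, against 3 in the full fit. The median log2 fold change stayed at 0.305 and 0.310 without cKDmix replicates 2 and 1, and 0.306 and 0.295 without c3NC replicates 1 and 2, beside 0.304. A lost call can come from having fewer libraries or from leaning on 1 library, which these fits cannot tell apart. With cKDmix replicate 2 left out only 62 genes were called (51 higher, 11 lower), and with its replicate 1 left out 501 (403 and 98). With c3NC replicate 1 left out 458 were called (365 and 93), and with its replicate 2 left out 1371 (1146 and 225). Over 178 counts, one per family and direction, the most members called in these fits were 2 (cKDmix replicate 2 left out), 5 (cKDmix replicate 1), 7 (c3NC replicate 1) and 20 (c3NC replicate 2).

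**Figure D1:**
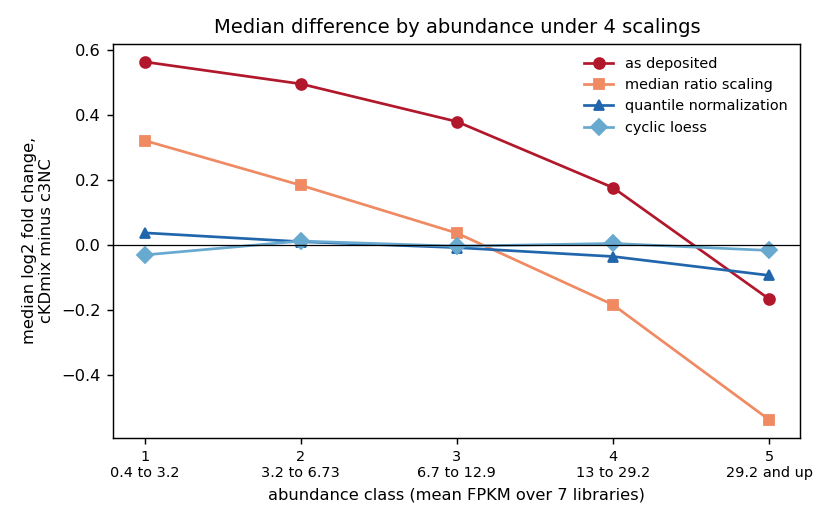
Median log2 fold change (cKDmix minus c3NC, y axis) of the genes in each of 5 classes of mean FPKM over the 7 libraries (x axis, rising to the right), under 4 scalings of the libraries. On deposited values the line slopes down, 0.56 in class 1 and -0.17 in class 5, while quantile normalization and cyclic loess stay between 0.04 and -0.09.

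Of the 4 classes, transcription factors were the one whose balance of higher and lower calls turned most with scaling. Of 854 measured genes in the 15 lists of DNA-binding factors, 612 were tested; 162 rose and 53 fell on the deposited values and 56 rose and 106 fell after quantile normalization. On the deposited values this was 26.5% higher and 8.66% lower, beside 28.1% and 7.94% of all genes. After quantile normalization it was 9.15% and 17.3%, beside 12.2% and 12.4%. Median ratio scaling gave 86 higher and 104 lower, and 50 rose and 52 fell alike under the 3 scalings. The class median log2 fold change was 0.31 on the deposited values and -0.09 after quantile normalization, beside 0.30 and -0.02 for all genes. With 1 of the 4 libraries left out, 1 to 42 factors were called higher and 0 to 18 lower, fewest without cKDmix replicate 2.

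The ranked factors with the largest rises alike under the 3 scalings came from different families. LHX8, a LIM homeobox factor needed for cholinergic neurons and oocytes in the mouse, was nearly absent from the control, with 9.45 and 9.3 FPKM in cKDmix, against 0.04 and 0 in c3NC (log2 fold change 3.35 ± 0.19, adjusted p = 0.000263). KLF5, a zinc finger factor of proliferating epithelium, had 8.29 and 10.7 FPKM in cKDmix, against 0.88 and 1.85 in c3NC (log2 fold change 2.17 ± 0.25, adjusted p = 0.00295). HMGA2, an architectural chromatin protein of embryonic and mesenchymal cells, had 5.53 and 11.9 FPKM in cKDmix, against 0.92 and 0.88 in c3NC (log2 fold change 2.27 ± 0.32, adjusted p = 0.0046); its cKDmix libraries differed from each other more than its c3NC libraries did. CEBPZ, a nucleolar protein that shares a name but no leucine zipper with the C/EBP factors, had 20.1 and 23.1 FPKM in cKDmix, against 3.45 and 4.86 in c3NC (log2 fold change 2.14 ± 0.31, adjusted p = 0.00468). ZNF644, a zinc finger protein that recruits histone H3 lysine methyltransferases, had 15.6 and 10.8 FPKM in cKDmix, against 2.08 and 2.64 in c3NC (log2 fold change 2.06 ± 0.41, adjusted p = 0.0106). For these 5 genes the ranking required both cKDmix libraries to lie above both c3NC libraries, an arrangement found in 55.6% of all genes tested. LHX8 and HMGA2 passed the filter only through cKDmix. Of the 5, 4 lost their call when cKDmix replicate 2 was left out, 2 when its replicate 1 was, and 1 and 0 when c3NC replicates 1 and 2 were; limma's adjusted p reached 0.087 at most and every fold change kept its sign; LHX8 stayed called in all 4 of these fits.

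Factors that fell alike included SNAI1, CEBPD and CEBPB. HMGA2, given above, and the adipocyte factor PPARG, given below, went the other way and rose alike. SNAI1, the repressor of E-cadherin that drives epithelial to mesenchymal transition, had 10.4 and 9.76 FPKM in cKDmix, against 39.5 and 30.4 in c3NC (log2 fold change -1.69 ± 0.20, adjusted p = 0.00325). SIX2, a homeobox factor of kidney progenitors, had 13.3 and 12.1 FPKM in cKDmix, against 32.6 and 34.7 in c3NC (log2 fold change -1.34). BHLHE22, a helix-loop-helix repressor known from neurons, had 1.74 and 2.06 FPKM in cKDmix, against 12.4 and 7.89 in c3NC (log2 fold change -1.91 ± 0.24, adjusted p = 0.00367). The zinc finger gene ZNF385D had 2.14 and 2.16 FPKM in cKDmix, against 7.86 and 9.7 in c3NC (log2 fold change -1.63 ± 0.21, adjusted p = 0.00382). CEBPD, an early factor of adipocyte differentiation and of the acute phase response, was the most abundant of these, with 329 and 233.5 FPKM in cKDmix, against 813 and 807 in c3NC (log2 fold change -1.54 ± 0.26, adjusted p = 0.00685). CEBPB, which acts beside CEBPD, had 67.6 and 58.5 FPKM in cKDmix, against 147 and 132 in c3NC (log2 fold change -1.13). For the 6 genes that fell, all the c3NC values were above the cKDmix values, an arrangement found in 22.9% of all genes tested. The ranking required this arrangement, except for SIX2 and CEBPB, which were named by family. Of these 6 genes, all 6 lost their call when cKDmix replicate 2 was left out, 1 when its replicate 1 was, and 2 and 1 when c3NC replicates 1 and 2 were; limma's adjusted p reached 0.09 at most and every fold change kept its sign.

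By family, the C2H2 zinc finger genes, the largest family of transcription factors in mammals, carried most of the higher calls. Of 223 tested, 86 rose and 6 fell on the deposited values and 29 rose and 18 fell after quantile normalization. In the paragraphs on families every gene given with values was called, with SEs of 0.17 to 0.44 and limma adjusted p values of 0.000263 to 0.048 over 142 genes. The quantile normalized share of higher calls, 13%, was near the 12.2% of all genes, while median ratio scaling gave 49 higher and 15 lower (21.97% higher against 15.5%). ZNF24 had 24.7 and 26.6 FPKM in cKDmix, against 6.72 and 8.6 in c3NC (log2 fold change 1.63). ZNF346 had 4.76 and 4.39 FPKM in cKDmix, against 1.18 and 0.97 in c3NC (log2 fold change 1.43). ZNF131, chosen after its values were seen, had 13.5 and 13.4 FPKM in cKDmix, against 4.66 and 5.06 in c3NC (log2 fold change 1.30). Members of this family share similar sequences, and the sources used here do not say how reads that match several members were counted. The ZBTB factors, which pair the same fingers with a BTB domain, had 13 higher and 1 lower of 36 on the deposited values and 0 higher and 2 lower after quantile normalization. ZBTB33, a methyl-CpG binding repressor, had 10.6 and 11.1 FPKM in cKDmix, against 3.92 and 5.17 in c3NC. ZBTB6 had 4.42 and 4.48 FPKM in cKDmix, against 1.35 and 1.53 in c3NC.

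Homeobox genes outside the HOX clusters, which pattern tissues, ran the other way. Of 51 tested, 8 rose and 9 fell on the deposited values and 2 rose and 17 fell after quantile normalization. The 33.3% lower after quantile normalization compares with 12.4% of all genes. Beside SIX2, PITX1, a hindlimb and pituitary factor, had 1 and 0.88 FPKM in cKDmix, against 3.66 and 3.18 in c3NC. IRX3, a patterning factor, had 15.4 and 13.4 FPKM in cKDmix, against 35.4 and 24.1 in c3NC. MEIS3, a HOX cofactor, had 13.3 and 11.1 FPKM in cKDmix, against 25.9 and 20.03 in c3NC. These 3 also fell and were picked for naming with their values known. Of 22 HOX genes tested, 2 rose on the deposited values, HOXA11 (2.89 and 2.57 FPKM in cKDmix, against 0.43 and 0.16 in c3NC) and HOXC8 (12.6 and 11.8 FPKM in cKDmix, against 4.26 and 3.42 in c3NC), and 0 fell; after quantile normalization 2 rose and 6 fell. Of the forkhead factors, 2 rose and 2 fell of 19 tested, with 1 and 5 after quantile normalization. FOXO3, a forkhead target of AKT signalling, had 8.39 and 9.9 FPKM in cKDmix, against 17.2 and 18.2 in c3NC (log2 fold change -0.89).

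Basic leucine zipper factors had the highest share of lower calls on the deposited values among families with at least 30 tested members. Of 42 tested, 10 rose and 13 fell on the deposited values and 3 rose and 13 fell after quantile normalization, a lower share of 30.95% under either scaling. FOS, FOSB, JUN, JUNB and JUND, the subunits of AP-1, were among those lower, FOS, FOSB and JUN with SEs of 1.44, 1.67 and 0.87 on the log2 scale, and FOSL1, another subunit, rose alike under the 3 scalings, with 25.2 and 28.1 FPKM in cKDmix, against 8.63 and 8.32 in c3NC (log2 fold change 1.54 ± 0.17, adjusted p = 0.00271). These 6 genes were not part of the ranking and FOSL1 was picked out after its values were seen. The clock-output factors DBP (5.54 and 6.91 FPKM in cKDmix, against 16.9 and 23.3 in c3NC) and TEF (12.3 and 13.1 FPKM in cKDmix, against 22.7 and 24.6 in c3NC) also fell, as did NFIL3 (22.5 and 23.7 FPKM in cKDmix, against 41.2 and 58.2 in c3NC), a repressor that binds the same sites and was chosen after its values were seen. The circadian list as a whole had 5 higher and 4 lower of 20 on the deposited values and 2 and 5 after quantile normalization. CLOCK, a core activator of the cycle, had 7.06 and 9.21 FPKM in cKDmix, against 2.26 and 3.06 in c3NC (log2 fold change 1.32). NR1D1, a nuclear receptor of the repressing limb, also chosen after its values were seen, had 9.99 and 12.2 FPKM in cKDmix, against 19.2 and 17.9 in c3NC (log2 fold change -0.70).

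Nuclear receptors, factors that bind steroids, retinoids and lipids, had 3 higher and 5 lower of 28 tested, and 2 and 10 after quantile normalization (35.7% lower). NR5A2, a regulator of steroid synthesis, had 0.44 and 1 FPKM in cKDmix, against 3.31 and 3.1 in c3NC (log2 fold change -1.31). RXRA, the common partner of many receptors, had 11.7 and 12.2 FPKM in cKDmix, against 21.8 and 18.9 in c3NC (log2 fold change -0.72). PPARG, the master factor of adipocytes, had 3.97 and 4.12 FPKM in cKDmix, against 0.5 and 0.39 in c3NC (log2 fold change 1.80). PPARG is itself on the adipocyte marker list given above. In that list CIDEC and LEP also rose, and LEP lost its call after quantile normalization and after loess. Among helix-loop-helix factors 5 of 45 rose and 4 fell, with 4 and 9 after quantile normalization. HES2 had 4.85 and 3.7 FPKM in cKDmix, against 0.95 and 0.81 in c3NC. ID2, an inhibitor of these factors that lacks a DNA-binding region, had 21.5 and 22.7 FPKM in cKDmix, against 44.7 and 65.1 in c3NC. TWIST1, a mesenchymal regulator chosen after its values were seen, had 6.76 and 5.73 FPKM in cKDmix, against 12.8 and 14.4 in c3NC. TEAD1 and TEAD2, the DNA-binding partners of YAP, moved in opposite directions: TEAD1 had 16.7 and 24.2 FPKM in cKDmix, against 6.53 and 7.88 in c3NC (log2 fold change 1.37). TEAD2 had 12.2 and 10.8 FPKM in cKDmix, against 24.9 and 19.8 in c3NC (log2 fold change -0.89), TEAD1 higher and TEAD2 lower under each of the 3 scalings. In their list, with T-box, GATA, EBF and RUNX factors, 2 rose and 1 fell of 16 tested, with 1 and 4 after quantile normalization. SMAD5, which carries BMP signals, had 17.9 and 19 FPKM in cKDmix, against 6.56 and 8.37 in c3NC (log2 fold change 1.21). In its list, with MEF2, SRF, NFI and NFAT factors, 6 rose and 1 fell of 20 tested, with 2 and 4 after quantile normalization. Of the 26 genes named by family in these 4 paragraphs, all 26 lost their call when cKDmix replicate 2 was left out, 23 when its replicate 1 was, and 20 and 10 when c3NC replicates 1 and 2 were; limma's adjusted p reached 0.19 at most and every fold change kept its sign. ZBTB33 and ZBTB6 also lost the call after quantile normalization, ZBTB33, ZBTB6 and NFIL3 after cyclic loess, NFIL3 with no filter on low values, NFIL3 with the replicate block.

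Receptors showed higher and lower calls side by side, with several ligand-receptor families split between members. Of 483 measured genes, 206 were tested; 61 rose and 30 fell on the deposited values and 31 rose and 42 fell after quantile normalization. The share higher was 29.6% on the deposited values, near the 28.1% of all genes. It was 15% after quantile normalization (12.2% of all genes) and 15.5% after median ratio scaling (15.5%). The share lower was 14.6% on the deposited values (7.94% of all genes) and 20.4% after quantile normalization (12.4%). The class median was 0.29 on the deposited values and -0.07 after quantile normalization, and 23 rose and 27 fell alike under the 3 scalings; median ratio scaling gave 32 higher and 40 lower. With 1 of the 4 libraries left out, 1 to 23 were called higher and 1 to 12 lower, fewest without a cKDmix library.

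The ranked receptors that rose bind nucleotides, cytokines and growth factors. P2RY2, a G protein-coupled receptor for extracellular ATP and UTP, had 19.4 and 22.1 FPKM in cKDmix, against 3 and 2.36 in c3NC (log2 fold change 2.57 ± 0.25, adjusted p = 0.0017). IL6ST (gp130), the signal chain shared by interleukin 6, LIF and oncostatin M, had 43.9 and 55.04 FPKM in cKDmix, against 9.37 and 11.3 in c3NC (log2 fold change 2.15 ± 0.20, adjusted p = 0.00135). MET, the receptor of hepatocyte growth factor, had 15.1 and 19.7 FPKM in cKDmix, against 2.75 and 4.41 in c3NC (log2 fold change 2.02 ± 0.24, adjusted p = 0.00314). EDA2R, a TNF receptor family member that binds ectodysplasin A2, had 8.31 and 12.2 FPKM in cKDmix, against 1.77 and 1.73 in c3NC (log2 fold change 2.01 ± 0.30, adjusted p = 0.00483). NTRK2, the receptor of BDNF, had 3.76 and 5.39 FPKM in cKDmix, against 0.23 and 0.53 in c3NC (log2 fold change 2.01 ± 0.27, adjusted p = 0.00402). Of these 5 receptors, 4 lost their call when cKDmix replicate 2 was left out, 0 when its replicate 1 was, and 0 and 0 when c3NC replicates 1 and 2 were; limma's adjusted p reached 0.079 at most and every fold change kept its sign; IL6ST stayed called in all 4 of these fits.

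The ranked receptors with the largest falls included a pair of class A scavenger receptors; NTRK3, not ranked and given below, fell further. SCARA5, a ferritin receptor, had 1.99 and 1.95 FPKM in cKDmix, against 13.5 and 8.56 in c3NC (log2 fold change -1.99 ± 0.28, adjusted p = 0.00451). SCARA3, which is induced by oxidative stress, had 20.1 and 20.4 FPKM in cKDmix, against 82.8 and 52.8 in c3NC (log2 fold change -1.66 ± 0.44, adjusted p = 0.0238). BAMBI, a decoy of TGF-beta family receptors that lacks the kinase domain, had 1.04 and 0.93 FPKM in cKDmix, against 6.15 and 7.58 in c3NC (log2 fold change -1.98 ± 0.29, adjusted p = 0.00478). GPRC5A, an orphan receptor induced by retinoic acid, had 2.22 and 2.74 FPKM in cKDmix, against 9.02 and 12.2 in c3NC (log2 fold change -1.73 ± 0.24, adjusted p = 0.00434). BDKRB2, the bradykinin B2 receptor, had 2 and 2.07 FPKM in cKDmix, against 10.8 and 6.15 in c3NC (log2 fold change -1.60 ± 0.28, adjusted p = 0.00728). Of these 5, all 5 lost their call when cKDmix replicate 2 was left out, 5 when its replicate 1 was, and 2 and 1 when c3NC replicates 1 and 2 were; limma's adjusted p reached 0.14 at most and every fold change kept its sign. SCARA3 also lost the call with no filter on low values.

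**Figure D2:**
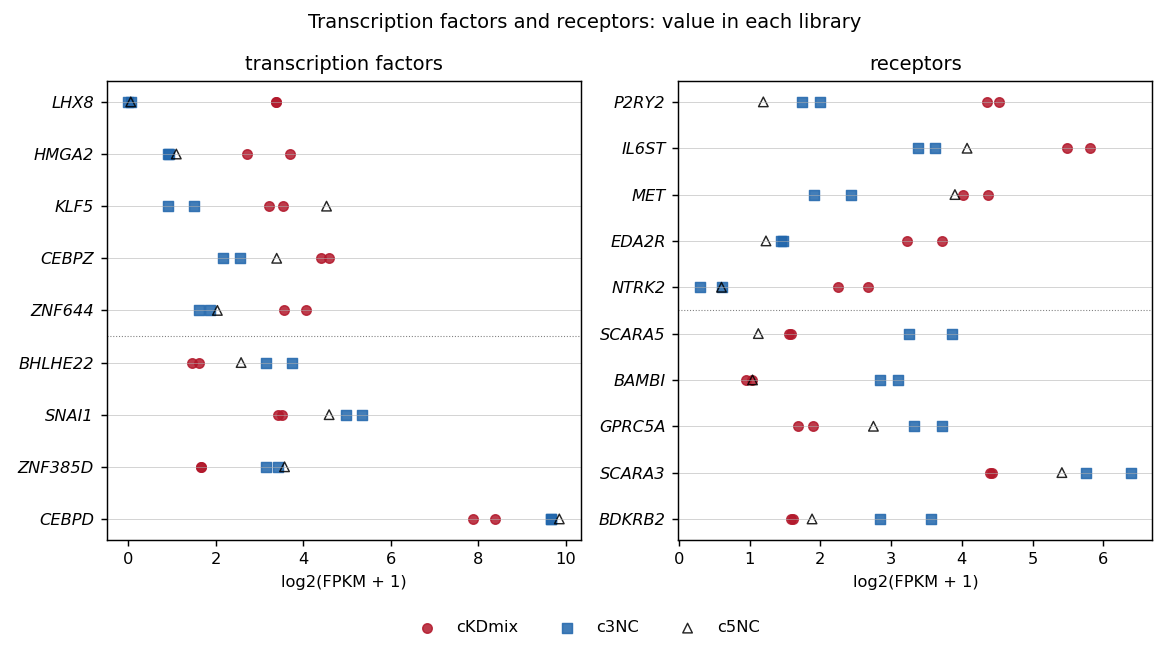
Value of each library, as log2(FPKM + 1) on the x axis, for 9 transcription factors and 10 receptors chosen by the ranking rule; red circles are the 2 cKDmix libraries, blue squares the 2 c3NC libraries and open triangles the c5NC library. By that rule the 5 genes above the dotted line in each panel are higher in both cKDmix libraries than in both c3NC libraries. Those below the line are lower, and LHX8 shows the widest gap among the factors.

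Of 12 receptors of the TGF-beta superfamily, 5 rose and 1 fell on the deposited values and 4 rose and 2 fell after quantile normalization, 41.7% and 33.3% higher against 28.1% and 12.2% of all genes; median ratio scaling gave 3 higher and 2 lower (25% against 15.5%). BAMBI is the 1 that fell on the deposited values. BMPR1A, a type I BMP receptor, had 9.31 and 9.97 FPKM in cKDmix, against 2.22 and 2.92 in c3NC (log2 fold change 1.58). BMPR2, the type II BMP receptor, had 12.5 and 15.3 FPKM in cKDmix, against 4.78 and 6 in c3NC (log2 fold change 1.22). TGFBR1, the type I TGF-beta receptor, had 17.7 and 18.1 FPKM in cKDmix, against 9.37 and 8.2 in c3NC (log2 fold change 0.95). All 3 rose alike under the 3 scalings, and BAMBI fell alike. BMPR2 was picked for naming with its values known.

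Receptor tyrosine kinases were split. Of 23 outside the Eph family, 6 rose and 6 fell on the deposited values and 3 rose and 8 fell after quantile normalization. Beside MET and NTRK2, DDR2, a collagen receptor chosen after its values were seen, had 32.2 and 47.8 FPKM in cKDmix, against 13.5 and 12.5 in c3NC (log2 fold change 1.53). FGFR1, a fibroblast growth factor receptor, had 15.2 and 18.3 FPKM in cKDmix, against 51.04 and 39.9 in c3NC (log2 fold change -1.39). ROR2, a WNT5A receptor, had 3.07 and 3.37 FPKM in cKDmix, against 7.19 and 6.42 in c3NC (log2 fold change -0.89). NTRK3, the receptor of neurotrophin 3, was at 1.84 and 1.98 FPKM in cKDmix and at 31.5 and 31.5 in c3NC, the gene being picked out after its values were seen; NTRK2 and NTRK3 moved in opposite directions under all 3 scalings. The plexins, receptors of semaphorins, also differed among themselves; in their list 1 rose and 2 fell of 12 tested, with 1 and 2 after quantile normalization. PLXNA2 had 2.89 and 4.1 FPKM in cKDmix, against 0.53 and 0.47 in c3NC (log2 fold change 1.57). PLXNA4 had 0.51 and 1.03 FPKM in cKDmix, against 4.95 and 3.61 in c3NC (log2 fold change -1.58).

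Cytokine receptors had more higher than lower calls, 11 of 31 with 1 lower on the deposited values (35.5% higher against 28.1% of all genes) and 7 with 2 lower after quantile normalization (22.6% against 12.2%); median ratio scaling gave 5 higher and 1 lower (16.1% against 15.5%). IFNAR1, a chain of the type I interferon receptor chosen after its values were seen, had 32.03 and 30.2 FPKM in cKDmix, against 14.8 and 11.1 in c3NC (log2 fold change 1.21). IL4R, the interleukin 4 receptor, had 18.7 and 17.7 FPKM in cKDmix, against 27.3 and 28.97 in c3NC (log2 fold change -0.60). The TNF receptor superfamily had 4 higher and 3 lower of 11, and 3 and 3 after quantile normalization. FAS, the death receptor, had 24.8 and 28.03 FPKM in cKDmix, against 8.29 and 9.68 in c3NC (log2 fold change 1.46). TNFRSF1A, the main receptor of TNF, had 21.1 and 22.8 FPKM in cKDmix, against 49.8 and 44.4 in c3NC (log2 fold change -1.07). TNFRSF21, a death receptor of neurons, had 8.17 and 7.75 FPKM in cKDmix, against 28.3 and 20.8 in c3NC (log2 fold change -1.50). Toll-like receptor TLR3, a sensor of double-stranded RNA, had 7.57 and 10.2 FPKM in cKDmix, against 2.08 and 2.69 in c3NC (log2 fold change 1.54). TLR4, the endotoxin receptor chosen after its values were seen, had 12.1 and 14.9 FPKM in cKDmix, against 5.46 and 5.66 in c3NC (log2 fold change 1.14); CD14, a co-receptor of TLR4 and a macrophage marker also chosen after its values were seen, was at 45.7 and 44.03 FPKM in cKDmix and 218 and 177 in c3NC.

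Among 65 other G protein-coupled receptors tested, 20 rose and 10 fell on the deposited values and 9 rose and 13 fell after quantile normalization. GPR160 had 10.3 and 8.33 FPKM in cKDmix, against 3.21 and 2.66 in c3NC (log2 fold change 1.39). C5AR2, a receptor of the complement fragment C5a that does not couple to G proteins, had 7.53 and 7.2 FPKM in cKDmix, against 26.9 and 18.2 in c3NC (log2 fold change -1.47). Of 9 adhesion G protein-coupled receptors, 1 rose and 2 fell, with 0 and 2 after quantile normalization. ADGRD1 had 2.92 and 3.48 FPKM in cKDmix, against 6.83 and 7.24 in c3NC (log2 fold change -0.94). ADGRE1, a macrophage antigen in the mouse, had 0.26 and 0.27 FPKM in cKDmix, against 2.39 and 1.54 in c3NC (log2 fold change -1.21). Among lipoprotein, sorting and scavenger receptors, SORT1, a sorting receptor for neurotrophin precursors, had 5.44 and 6.65 FPKM in cKDmix, against 0.47 and 1.21 in c3NC (log2 fold change 1.96). CD36, a fatty acid receptor, had 33.2 and 30.9 FPKM in cKDmix, against 62.9 and 71.6 in c3NC (log2 fold change -1.04); 6 of 20 in that list rose and 5 fell, with 3 and 6 after quantile normalization. Of the 23 receptors named by family in these 4 paragraphs, 22 lost their call when cKDmix replicate 2 was left out, 17 when its replicate 1 was, and 17 and 6 when c3NC replicates 1 and 2 were; limma's adjusted p reached 0.17 at most and every fold change kept its sign; NTRK3 stayed called in all 4 of these fits.

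Secreted factors were the class with the most higher calls relative to the background after quantile normalization. Of 331 measured, 155 were tested; 49 rose and 17 fell on the deposited values and 32 rose and 25 fell after quantile normalization, which is 20.6% higher against 12.2% of all genes and 16.1% lower against 12.4%. The class median was 0.40 on the deposited values and 0.16 after quantile normalization, and 24 rose and 17 fell alike under the 3 scalings; median ratio scaling gave 35 higher and 25 lower. With 1 of the 4 libraries left out, 3 to 26 were called higher and 1 to 9 lower, fewest without cKDmix replicate 2.

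FST (follistatin), which binds and blocks activins, had 24.2 and 21 FPKM in cKDmix, against 0.79 and 2.57 in c3NC (log2 fold change 3.22 ± 0.56, adjusted p = 0.00738). CX3CL1 (fractalkine), a membrane-bound chemokine that can be shed, was listed at 0 in both c3NC libraries and at 4.91 and 4.58 FPKM in cKDmix (adjusted p = 0.000577). IL33, an alarmin of stromal and epithelial nuclei, had 32.05 and 32.5 FPKM in cKDmix, against 4.36 and 5.5 in c3NC (log2 fold change 2.49 ± 0.34, adjusted p = 0.00425). SEMA3C, a secreted guidance cue, had 64.5 and 75.6 FPKM in cKDmix, against 7.88 and 18.2 in c3NC (log2 fold change 2.44 ± 0.50, adjusted p = 0.0111); its c3NC libraries differed from each other by more on the log2 scale than its cKDmix libraries. TFPI, the inhibitor of the tissue factor pathway of coagulation, had 20.9 and 21.7 FPKM in cKDmix, against 2.75 and 4.23 in c3NC (log2 fold change 2.33 ± 0.22, adjusted p = 0.00139). Of these 5 secreted factors, 4 lost their call when cKDmix replicate 2 was left out, 3 when its replicate 1 was, and 2 and 0 when c3NC replicates 1 and 2 were; limma's adjusted p reached 0.11 at most and every fold change kept its sign; CX3CL1 stayed called in all 4 of these fits.

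On the lower side, SFRP4, a secreted antagonist of WNT ligands and the most abundant gene of the ranked set, had 497 and 475 FPKM in cKDmix, against 2448 and 1658 in c3NC (log2 fold change -2.05 ± 0.32, adjusted p = 0.00584). PDGFD, a ligand of PDGF receptor beta, had 3.59 and 5.75 FPKM in cKDmix, against 20.9 and 22.6 in c3NC (log2 fold change -2.03 ± 0.23, adjusted p = 0.00258); the receptor gene PDGFRB was also lower, as given with the fibroblast markers. SEMA3F, another class 3 semaphorin, had 16.3 and 18.1 FPKM in cKDmix, against 63.2 and 72.1 in c3NC (log2 fold change -1.92 ± 0.25, adjusted p = 0.00382), opposite in direction to SEMA3C. MIF, a cytokine released from preformed stores, had 240.3 and 185 FPKM in cKDmix, against 512 and 549.8 in c3NC (log2 fold change -1.33 ± 0.28, adjusted p = 0.0119). GDF10, a TGF-beta superfamily ligand, had 2.83 and 2.29 FPKM in cKDmix, against 8.83 and 5.72 in c3NC (log2 fold change -1.20 ± 0.35, adjusted p = 0.0324). Of the 5, 4 lost their call when cKDmix replicate 2 was left out, 3 when its replicate 1 was, and 3 and 2 when c3NC replicates 1 and 2 were; limma's adjusted p reached 0.19 at most and every fold change kept its sign; PDGFD stayed called in all 4 of these fits. MIF also lost the call after cyclic loess, GDF10 with a pseudocount of 0.1, GDF10 with no filter on low values.

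Neurotrophic factors keep neurons alive and are also made by stromal cells. Of 13 tested, 6 rose and 0 fell on the deposited values and 6 and 0 after quantile normalization (46.2% under either, against 28.1% and 12.2% of all genes); median ratio scaling gave 5 higher and 1 lower, and cyclic loess 4 and 0. Of these 13, 3 passed the filter only through cKDmix and are among the 6 that rose (MDK, NTF3 and GDNF). These 3 could be tested only because cKDmix was high, so they do not count toward a rise of the family. The 6 called higher were not all the same genes under the 2 scalings, and 4 of the 13 rose alike under the 3 scalings. BDNF, the ligand of NTRK2, had 5.77 and 5.63 FPKM in cKDmix, against 1.14 and 1.12 in c3NC (log2 fold change 1.65). MDK (midkine), a heparin-binding growth factor, had 2.81 and 1.73 FPKM in cKDmix, against 0 and 0.08 in c3NC (log2 fold change 1.63). NTF3, the ligand of NTRK3, was listed at 0 in both c3NC libraries and at 1.73 and 1.3 FPKM in cKDmix. GDNF, a ligand of the RET complex, had 1.59 and 1.34 FPKM in cKDmix, against 0.32 and 0.42 in c3NC. NTF3 and GDNF were picked for naming with their values known. BDNF and its receptor NTRK2 were both higher, whereas NTF3 rose and its receptor NTRK3 fell.

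EGF family ligands had 3 higher and 0 lower of 5, and 2 and 0 after quantile normalization. This was 60% and 40% higher, against 28.1% and 12.2% of all genes, but on 5 genes, and median ratio scaling called 1 higher. EREG (epiregulin) had 37.1 and 43.9 FPKM in cKDmix, against 10.1 and 14.4 in c3NC (log2 fold change 1.66). TGFA had 47.6 and 53.2 FPKM in cKDmix, against 22.4 and 29.01 in c3NC (log2 fold change 0.95). Of 7 BMP and activin antagonists, 3 rose and 0 fell on the deposited values and 4 rose and 0 fell after quantile normalization. This was 42.9% and 57.1% higher, and median ratio scaling called 2 higher and 0 lower. Beside FST, CRIM1, which binds BMPs at the producing cell, had 40.6 and 47.04 FPKM in cKDmix, against 7.79 and 17.5 in c3NC (log2 fold change 1.81). Of 12 BMP, GDF, activin and TGF-beta ligands, 5 rose and 2 fell, with 1 and 2 after quantile normalization. GDF15, a stress-induced ligand of this superfamily, had 196 and 181 FPKM in cKDmix, against 57.8 and 55.6 in c3NC (log2 fold change 1.72). INHBB, a subunit of activin B, had 0.19 and 0.17 FPKM in cKDmix, against 1.95 and 1.77 in c3NC (log2 fold change -1.28). Of FGF, HGF and IGF ligands, 2 rose and 0 fell of 5 tested, with 1 and 0 after quantile normalization. FGF10, the mesenchymal ligand needed for mammary bud formation in the mouse, had 17.04 and 16.1 FPKM in cKDmix, against 7.27 and 8.29 in c3NC.

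Among 36 chemokines and cytokines, 9 rose and 6 fell on the deposited values and 6 rose and 9 fell after quantile normalization. IL18, a cytokine of the interleukin 1 family, had 30.6 and 32.9 FPKM in cKDmix, against 12.1 and 10.6 in c3NC (log2 fold change 1.41). TNFSF12 (TWEAK) had 22.1 and 18.4 FPKM in cKDmix, against 41.1 and 38.4 in c3NC (log2 fold change -0.95). CXCL12, a homing chemokine of stroma chosen after its values were seen, had 5.29 and 5.49 FPKM in cKDmix, against 16.5 and 8.82 in c3NC (log2 fold change -1.04). Of the PDGF, VEGF and angiopoietin family, 2 rose and 3 fell of 12 tested, with 2 and 4 after quantile normalization. ANGPT1, the activating ligand of TIE2, had 51.95 and 62.04 FPKM in cKDmix, against 13.1 and 24.1 in c3NC (log2 fold change 1.62). ANGPTL4, an inhibitor of lipoprotein lipase, had 29.9 and 28.2 FPKM in cKDmix, against 68.7 and 55.7 in c3NC (log2 fold change -1.07). Of semaphorins, slits and netrins, 4 rose and 2 fell of 16 tested, with 3 and 4 after quantile normalization. NTN4, a netrin of basement membranes, had 69.2 and 68.1 FPKM in cKDmix, against 13.99 and 16.6 in c3NC (log2 fold change 2.10). NTNG1, a membrane-anchored netrin, had 3.2 and 3.2 FPKM in cKDmix, against 0.54 and 0.59 in c3NC (log2 fold change 1.42). Peptide hormones and granins had 7 higher and 1 lower of 15, and 3 and 1 after quantile normalization. This was 46.7% and 20% higher, against 28.1% and 12.2% of all genes. Of the 15, 4 passed the filter only through cKDmix, and all 4 are among the higher. These 4 could be tested only because cKDmix was high, so they do not count toward a rise of the family. APLN (apelin) had 11.3 and 10.96 FPKM in cKDmix, against 4.39 and 5.03 in c3NC (log2 fold change 1.09). STC2 (stanniocalcin 2), a glycoprotein that inhibits the protease PAPP-A, had 6.98 and 6.52 FPKM in cKDmix, against 18.97 and 14.7 in c3NC (log2 fold change -1.19). Of serpins and other protease inhibitors, 6 rose and 1 fell of 23 tested, with 4 and 3 after quantile normalization. SPINT2, an inhibitor of serine proteases that process hepatocyte growth factor, had 6.6 and 5.09 FPKM in cKDmix, against 0.59 and 1.26 in c3NC (log2 fold change 1.84). Of the 20 secreted factors named by family in these 3 paragraphs, 19 lost their call when cKDmix replicate 2 was left out, 16 when its replicate 1 was, and 14 and 5 when c3NC replicates 1 and 2 were; limma's adjusted p reached 0.21 at most and every fold change kept its sign; NTN4 stayed called in all 4 of these fits. GDNF also lost the call after quantile normalization, TGFA after median ratio scaling, NTF3, GDNF, FGF10 and APLN after cyclic loess, TGFA and CXCL12 with no filter on low values.

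Channels and transporters had the most one-sided calls of the 4 classes on the deposited values. Of 612 measured, 288 were tested; 100 rose and 12 fell on the deposited values and 41 rose and 26 fell after quantile normalization. The higher share was 34.7% against 28.1% of all genes on the deposited values and 14.2% against 12.2% after quantile normalization. The class median was 0.50 on the deposited values and 0.13 after quantile normalization, and 35 rose and 11 fell alike under the 3 scalings; median ratio scaling gave 55 higher and 29 lower. With 1 of the 4 libraries left out, 5 to 31 were called higher and 2 to 4 lower, fewest higher without cKDmix replicate 2.

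SLC40A1 (ferroportin), the only known cellular iron exporter of vertebrates, had 19.9 and 17.4 FPKM in cKDmix, against 0.15 and 0.17 in c3NC (log2 fold change 4.08 ± 0.19, adjusted p = 0.000166), the largest rise of the ranked set on this scale. SLC40A1, KCNMB1 and SLC26A2 passed the filter only through cKDmix. KCNMB1, the beta 1 subunit of the large-conductance calcium-activated potassium (BK) channel of smooth muscle, had 15.9 and 17.5 FPKM in cKDmix, against 0.36 and 0.77 in c3NC (log2 fold change 3.51 ± 0.21, adjusted p = 0.000273). SLC26A2, a sulfate carrier that supplies proteoglycan synthesis, had 8.28 and 11.1 FPKM in cKDmix, against 0.52 and 0.66 in c3NC (log2 fold change 2.74 ± 0.22, adjusted p = 0.000948). SCN2A, a voltage-gated sodium channel, had 7.1 and 8.97 FPKM in cKDmix, against 0.22 and 1.05 in c3NC (log2 fold change 2.51 ± 0.50, adjusted p = 0.0106). ATP2B4, a calcium pump of the plasma membrane, had 14.3 and 15.8 FPKM in cKDmix, against 1.85 and 2.2 in c3NC (log2 fold change 2.41 ± 0.27, adjusted p = 0.00282). Of these 5, 2 lost their call when cKDmix replicate 2 was left out, 1 when its replicate 1 was, and 1 and 0 when c3NC replicates 1 and 2 were; limma's adjusted p reached 0.11 at most and every fold change kept its sign; SLC40A1, KCNMB1 and SLC26A2 stayed called in all 4 of these fits.

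The falls included subunits of the potassium channels of smooth muscle and pericytes. ABCC9 (SUR2), the sulfonylurea receptor of ATP-sensitive potassium channels, had 1.32 and 2.31 FPKM in cKDmix, against 17.6 and 15.7 in c3NC (log2 fold change -2.67 ± 0.22, adjusted p = 0.00105). KCNJ8 (Kir6.1), the pore that assembles with it and chosen after its values were seen, was at 2.65 and 1.84 FPKM in cKDmix and 81.2 and 73.3 in c3NC. KCNMA1, the pore of the BK channel, had 0.54 and 0.77 FPKM in cKDmix, against 4.34 and 3.9 in c3NC (log2 fold change -1.63 ± 0.24, adjusted p = 0.00484), opposite in direction to its subunit KCNMB1. ITPR1, a receptor channel that releases calcium from the endoplasmic reticulum, had 11.7 and 15.1 FPKM in cKDmix, against 39.4 and 47.6 in c3NC (log2 fold change -1.63 ± 0.27, adjusted p = 0.00642). GRIN3B, an NMDA receptor subunit, had 3.93 and 4.03 FPKM in cKDmix, against 8.93 and 9.49 in c3NC (log2 fold change -1.04 ± 0.19, adjusted p = 0.00867). KCNAB2, a beta subunit of voltage-gated potassium channels, had 5.57 and 6.71 FPKM in cKDmix, against 14.5 and 12.5 in c3NC (log2 fold change -1.02 ± 0.29, adjusted p = 0.0313). ABCC9 and KCNJ8 were also on the pericyte and smooth muscle list, whose other tested members were 1 lower (MYH11) and 2 not called. Of these 6 genes, 4 lost their call when cKDmix replicate 2 was left out, 4 when its replicate 1 was, and 3 and 2 when c3NC replicates 1 and 2 were; limma's adjusted p reached 0.17 at most and every fold change kept its sign; ABCC9 and KCNJ8 stayed called in all 4 of these fits. KCNAB2 also lost the call with no filter on low values.

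**Figure D3:**
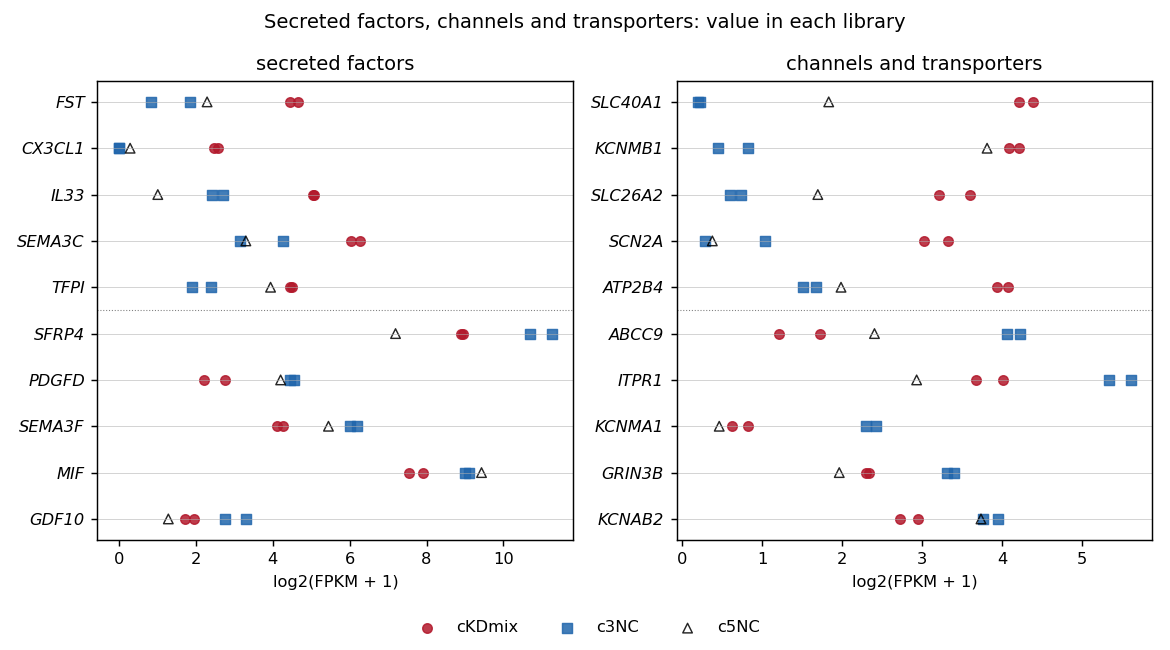
Value of each library, as log2(FPKM + 1) on the x axis, for the 10 secreted factors and 10 channels and transporters chosen by the ranking rule; red circles are the 2 cKDmix libraries, blue squares the 2 c3NC libraries and open triangles the c5NC library. SLC40A1 and KCNMB1 show the widest gaps with cKDmix on the right, and in KCNMB1 the c5NC library lies near the cKDmix libraries.

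Potassium channels as a family had 7 higher and 3 lower of 18, and 5 and 4 after quantile normalization. KCNIP4, a calcium-binding partner of Kv4 channels, was listed at 0 in both c3NC libraries and at 1.57 and 1.28 FPKM in cKDmix. Its relative KCNIP2 had 18.9 and 17.9 FPKM in cKDmix, against 5.39 and 2.22 in c3NC (log2 fold change 2.10). KCNK12, of the tandem pore family, had 15.4 and 11.6 FPKM in cKDmix, against 3.77 and 5.49 in c3NC (log2 fold change 1.37); both were chosen after their values were seen. Ligand-gated channels, known from neurons, had 6 higher and 1 lower of 12, and 5 and 2 after quantile normalization (41.7% higher against 12.2% of all genes); median ratio scaling gave 5 higher and 1 lower. Of these 12, 3 passed the filter only through cKDmix and all 3 are among the higher. They could be tested only because cKDmix was high, so these 3 do not count toward a rise of the family. GRIK1, a kainate receptor subunit, had 3.83 and 4.48 FPKM in cKDmix, against 0.05 and 0.14 in c3NC (log2 fold change 2.23). GRIA3, an AMPA receptor subunit, had 11.5 and 14.6 FPKM in cKDmix, against 3.67 and 5.9 in c3NC (log2 fold change 1.29). GLRA3, a glycine receptor subunit, had 3.8 and 5.91 FPKM in cKDmix, against 0.22 and 0.73 in c3NC. Its partner subunit GLRB had 5.97 and 5.93 FPKM in cKDmix, against 0.66 and 2.3 in c3NC. GRIA3, GLRA3 and GLRB were chosen after their values were seen, and the c3NC values of GRIK1 were close to 0.

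Zinc and metal carriers had 9 higher and 0 lower of 24 on the deposited values, and 6 and 1 after quantile normalization (25% higher against 12.2%); median ratio scaling gave 6 higher and 3 lower (25% higher against 15.5%). Beside ferroportin, the zinc exporters SLC30A6 (10.2 and 11.5 FPKM in cKDmix, against 3.68 and 3.34 in c3NC) and SLC30A7 (12.02 and 11.4 FPKM in cKDmix, against 4.38 and 4.34 in c3NC), which load the secretory pathway, rose alike under the 3 scalings. SLC39A6, a zinc importer, had 198 and 219.6 FPKM in cKDmix, against 63.03 and 96.2 in c3NC (log2 fold change 1.41). SLC41A2, a magnesium carrier, had 45.7 and 47.7 FPKM in cKDmix, against 19.6 and 23.3 in c3NC (log2 fold change 1.09). SLC30A7, SLC39A6 and SLC41A2 were chosen after their values were seen. Sodium and calcium channels had 6 higher and 0 lower of 12, and 3 and 1 after quantile normalization. This was 50% and 25% higher, against 28.1% and 12.2% of all genes, and median ratio scaling gave 5 higher and 0 lower. Of the 12, 2 passed the filter only through cKDmix, 1 of them called higher. CACNA2D1, an auxiliary subunit of calcium channels, had 9.83 and 10.9 FPKM in cKDmix, against 3.35 and 3.95 in c3NC (log2 fold change 1.29). TRPM7, a channel for magnesium and calcium with a kinase domain, had 17.3 and 16.01 FPKM in cKDmix, against 3.48 and 5.09 in c3NC (log2 fold change 1.76), in a list of 18 with 6 higher and 0 lower, and 1 and 0 after quantile normalization.

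Other carriers rose more often than they fell on the deposited values and were near the background after quantile normalization. Of 30 amino acid carriers, 7 rose and 1 fell, and 4 rose and 4 fell after quantile normalization; SLC36A4 had 17.5 and 18.7 FPKM in cKDmix, against 5.86 and 6.62 in c3NC (log2 fold change 1.40). SLC1A4, a carrier of neutral amino acids, had 2.82 and 3.34 FPKM in cKDmix, against 0.93 and 0.47 in c3NC (log2 fold change 1.27). Of 25 ABC family genes, 8 rose and 2 fell, with 3 and 4 after quantile normalization. ABCB1, the multidrug exporter P-glycoprotein, had 13.1 and 16.6 FPKM in cKDmix, against 3.73 and 3.36 in c3NC (log2 fold change 1.79). ABCC1, an exporter of glutathione conjugates, had 6.34 and 8.86 FPKM in cKDmix, against 15.5 and 12.3 in c3NC (log2 fold change -0.80). The phospholipid flippase ATP11B had 16.4 and 19.2 FPKM in cKDmix, against 5.46 and 7.7 in c3NC (log2 fold change 1.32), in a list with 6 higher and 0 lower of 15, and 2 and 0 after quantile normalization. Of sugar and monocarboxylate carriers, 5 rose and 1 fell of 14 tested, with 1 and 2 after quantile normalization. SLC16A1, the monocarboxylate carrier MCT1, had 51.98 and 52.6 FPKM in cKDmix, against 24.9 and 22.3 in c3NC (log2 fold change 1.12). Of the 19 genes named by family in these 3 paragraphs, 18 lost their call when cKDmix replicate 2 was left out, 15 when its replicate 1 was, and 14 and 4 when c3NC replicates 1 and 2 were; limma's adjusted p reached 0.25 at most and every fold change kept its sign; GRIK1 stayed called in all 4 of these fits. KCNIP4, KCNK12, GRIA3 and SLC1A4 also lost the call after cyclic loess, ABCC1 with no filter on low values, ABCC1 with no variance trend, ABCC1 with the replicate block.

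Outside the 4 classes and the cell type marker lists, the families with the highest shares of higher calls on the deposited values were those of DNA repair, cilia and nuclear pores. The order differed after quantile normalization, with septins at 22.2%, repair genes at 21.6% and cilium genes at 14.6%. Nucleoporins, chromatin remodellers and tetraspanins each had 20% there. Of 51 genes of Fanconi, homologous recombination and mismatch repair, 26 rose and 2 fell on the deposited values (50.98% higher) and 11 rose and 4 fell after quantile normalization (21.6% higher against 12.2% of all genes). Here median ratio scaling gave 22 higher and 5 lower (43.1% higher against 15.5%), and 12 members passed the filter only through cKDmix, 9 of them called higher. Their median log2 fold change was 0.83 on the deposited values and 0.36 after quantile normalization. These repair genes had a median of 2.05 FPKM in c3NC, beside 7.61 over all genes tested, and median ratio scaling kept the slope with abundance. MSH3, a mismatch recognition subunit, had 17.5 and 22.2 FPKM in cKDmix, against 0.99 and 1.43 in c3NC (log2 fold change 3.24 ± 0.21, adjusted p = 0.000344). RAD50, a subunit of the complex that resects double-strand breaks, had 10.97 and 13.3 FPKM in cKDmix, against 1.18 and 2.08 in c3NC (log2 fold change 2.34), its partner MRE11A 11.1 and 12.1 FPKM in cKDmix, against 3.23 and 3.78 in c3NC (log2 fold change 1.48). RBBP8 (CtIP), a cofactor of the same complex, had 13.2 and 15.7 FPKM in cKDmix, against 2.4 and 4.29 in c3NC (log2 fold change 1.86). BRCA2, a mediator of homologous recombination, had 2.44 and 3.1 FPKM in cKDmix, against 0.2 and 0.25 in c3NC (log2 fold change 1.62). ATR, the kinase of stalled forks, had 2.27 and 2.78 FPKM in cKDmix, against 0.59 and 0.55 in c3NC (log2 fold change 1.16). ATRIP, its obligate partner, had 4.26 and 5.16 FPKM in cKDmix, against 7.15 and 9.26 in c3NC (log2 fold change -0.68). RAD52 had 11.9 and 11.5 FPKM in cKDmix, against 18.4 and 19.9 in c3NC (log2 fold change -0.66). MRE11A, RBBP8, BRCA2 and ATR were chosen after their values were seen. Of these 8 genes, 7 lost their call when cKDmix replicate 2 was left out, 3 when its replicate 1 was, and 3 and 3 when c3NC replicates 1 and 2 were; limma's adjusted p reached 0.25 at most and every fold change kept its sign; MSH3 stayed called in all 4 of these fits. ATR also lost the call after cyclic loess, ATRIP with no filter on low values, ATRIP with the replicate block.

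Of 82 cilium and basal body genes, 40 rose and 1 fell on the deposited values (48.8% higher). After quantile normalization 12 rose and 4 fell (14.6% higher against 12.2% of all genes). Median ratio scaling, which kept the slope with abundance, gave 26 higher and 6 lower (31.7% higher against 15.5%). Their median in c3NC was 3.43 FPKM, beside 7.61 over all genes tested. CEP290, a gatekeeper of the ciliary transition zone, had 1.33 and 2 FPKM in cKDmix, against 0.06 and 0.13 in c3NC (log2 fold change 1.27). CEP83, which anchors the mother centriole, had 4.84 and 4.32 FPKM in cKDmix, against 0.5 and 0.87 in c3NC (log2 fold change 1.73). ALMS1, a basal body protein chosen after its values were seen, had 9.51 and 10.4 FPKM in cKDmix, against 1.06 and 1.34 in c3NC (log2 fold change 2.32). IFT43, of the retrograde transport complex, had 4.13 and 3.87 FPKM in cKDmix, against 9.44 and 8.56 in c3NC and was the only member that fell on the deposited values. Hedgehog pathway genes, which signal through the cilium, had 1 higher and 0 lower of 9, and 0 and 1 after quantile normalization. Kinesins had 10 higher and 0 lower of 29, and 4 and 1 after quantile normalization; KIF5B, a motor of organelle transport, had 56.2 and 73.4 FPKM in cKDmix, against 10.9 and 18.8 in c3NC (log2 fold change 2.08). KIF20B, of late cell division, had 4.16 and 5.54 FPKM in cKDmix, against 0.27 and 1.19 in c3NC (log2 fold change 1.80). Nucleoporins had 11 higher and 0 lower of 25, and 5 and 1 after quantile normalization (20% higher). NUP98 had 36.4 and 44.9 FPKM in cKDmix, against 8.76 and 8.7 in c3NC (log2 fold change 2.09). TPR, of the nuclear basket, had 16.4 and 26.6 FPKM in cKDmix, against 3.65 and 4.69 in c3NC (log2 fold change 2.09). Of the 8 genes named here, all 8 lost their call when cKDmix replicate 2 was left out, 5 when its replicate 1 was, and 6 and 1 when c3NC replicates 1 and 2 were; limma's adjusted p reached 0.12 at most and every fold change kept its sign. CEP290 also lost the call after cyclic loess.

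Calls in chromatin families depended on the scaling. Chromatin remodellers had 13 higher and 2 lower of 40 on the deposited values and 8 and 6 after quantile normalization (20% higher, 15% lower). CHD9 had 7.42 and 10.2 FPKM in cKDmix, against 1.51 and 1.99 in c3NC (log2 fold change 1.83). SMARCAD1, a remodeller of repair and silencing, had 7.62 and 8.38 FPKM in cKDmix, against 1.52 and 2.19 in c3NC (log2 fold change 1.67). SMARCD3, a subunit of the BAF complex known from heart and muscle, had 63.1 and 50.9 FPKM in cKDmix, against 117 and 120.2 in c3NC (log2 fold change -1.05). INO80B had 14.4 and 13.3 FPKM in cKDmix, against 30 and 28.1 in c3NC (log2 fold change -1.01). Histone lysine methyltransferases and demethylases had 15 higher and 0 lower of 50 on the deposited values but 1 and 0 after quantile normalization, the remaining gene being SETDB2, with 2.22 and 3.59 FPKM in cKDmix, against 0.66 and 0.71 in c3NC (log2 fold change 1.19). Histone acetylation and bromodomain genes had 5 higher and 0 lower of 47, and 0 and 5 after quantile normalization. Mediator and integrator subunits had 9 higher and 1 lower of 43, and 0 and 7 after quantile normalization; MED21 had 32.7 and 19.3 FPKM in cKDmix, against 58.2 and 65.8 in c3NC (log2 fold change -1.27). For these last 3 families the calls on the deposited values mostly did not recur after quantile normalization, under which all genes were called higher in 12.2% and lower in 12.4%. Of the 6 genes named here, all 6 lost their call when cKDmix replicate 2 was left out, 3 when its replicate 1 was, and 4 and 4 when c3NC replicates 1 and 2 were; limma's adjusted p reached 0.19 at most and every fold change kept its sign. SETDB2 also lost the call after cyclic loess, MED21 with no filter on low values.

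**Figure D4:**
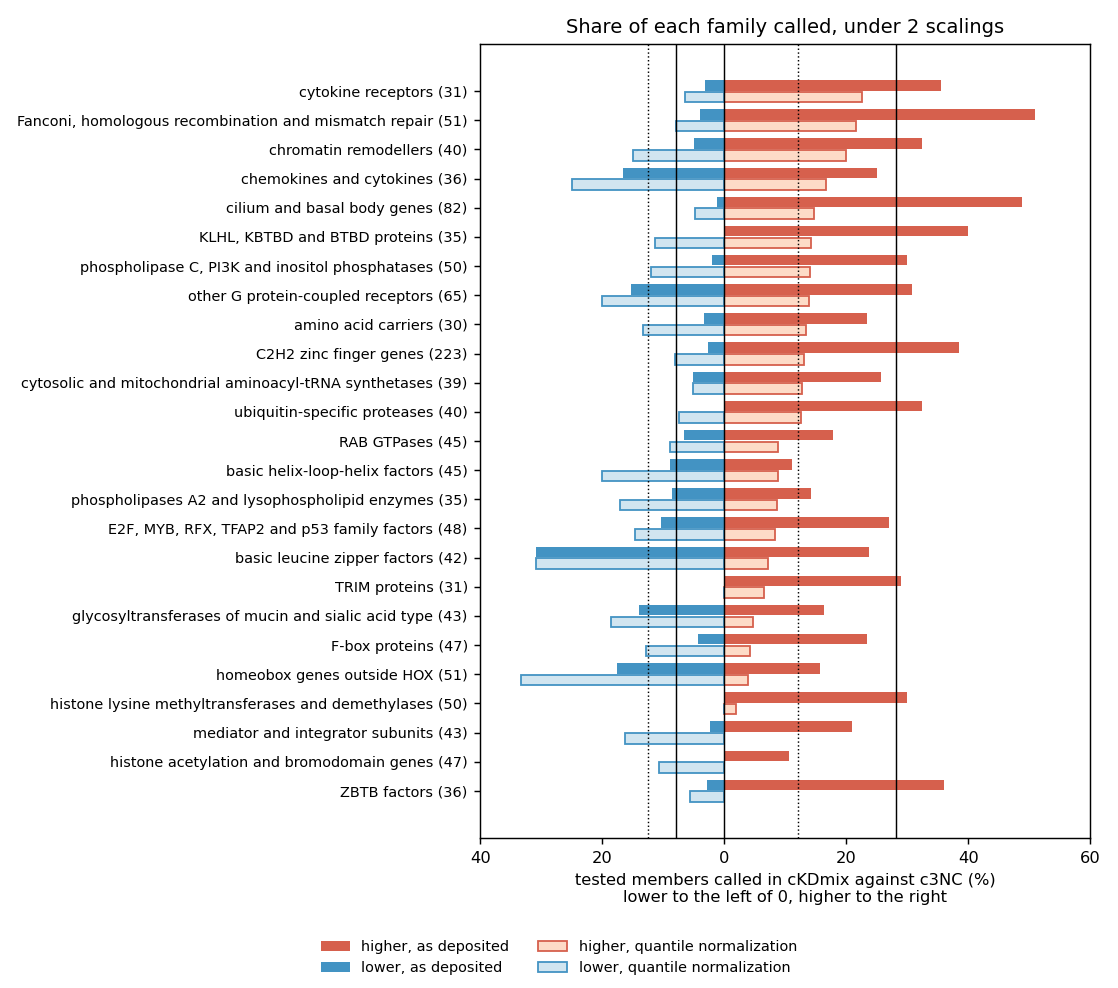
Share of tested members called lower (bars to the left of 0) and higher (bars to the right) in cKDmix against c3NC, in percent, for 25 families with at least 30 tested members (number in brackets); filled bars are deposited values and pale bars quantile normalized values. Solid and dotted vertical lines mark the shares of all 11800 genes on deposited (28.1% higher, 7.94% lower) and quantile normalized values (12.2% and 12.4%), and in each of the 25 families the pale bar on the right is shorter than the filled one.

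Signal regulators inside the cell showed some of the largest single differences. Of 8 regulators of G protein signalling, which shorten the active state of G alpha subunits, 1 rose and 3 fell, with 1 and 5 after quantile normalization. RGS3 had 6.06 and 5.18 FPKM in cKDmix, against 26.6 and 34.5 in c3NC (log2 fold change -2.24 ± 0.32, adjusted p = 0.00468). RGS10 had 3.72 and 2.86 FPKM in cKDmix, against 9.04 and 11.5 in c3NC (log2 fold change -1.39). RGS7, known from neurons, had 56.1 and 52.9 FPKM in cKDmix, against 10.6 and 15.9 in c3NC (log2 fold change 1.99 ± 0.37, adjusted p = 0.00851). Of 27 cyclic nucleotide enzymes 7 rose and 3 fell, with 3 and 4 after quantile normalization. PDE5A, which degrades cyclic GMP in smooth muscle, had 65.99 and 75.8 FPKM in cKDmix, against 15.1 and 22.8 in c3NC (log2 fold change 1.87). PDE1A, activated by calcium and calmodulin, had 4.58 and 5.02 FPKM in cKDmix, against 0.13 and 0.46 in c3NC (log2 fold change 2.17). PDE7B, specific for cyclic AMP, had 1.37 and 1.26 FPKM in cKDmix, against 5.27 and 2.89 in c3NC (log2 fold change -1.09). PRKG1, the kinase activated by cyclic GMP, had 1.96 and 1.97 FPKM in cKDmix, against 3.75 and 4.07 in c3NC (log2 fold change -0.73). Tetraspanins had 5 higher and 1 lower of 20, and 4 and 2 after quantile normalization; TSPAN7 had 32.7 and 29.01 FPKM in cKDmix, against 0.91 and 1.72 in c3NC (log2 fold change 3.80). CD53, a tetraspanin of leukocytes, had 10.03 and 9.16 FPKM in cKDmix, against 0 and 0.21 in c3NC (log2 fold change 3.27). CD81 had 158 and 141 FPKM in cKDmix, against 310.2 and 302 in c3NC (log2 fold change -1.03). Of the 10 signal regulators and tetraspanins, 8 lost their call when cKDmix replicate 2 was left out, 8 when its replicate 1 was, and 5 and 3 when c3NC replicates 1 and 2 were; limma's adjusted p reached 0.23 at most and every fold change kept its sign; TSPAN7 and CD53 stayed called in all 4 of these fits. CD81 also lost the call after cyclic loess, PDE7B with no filter on low values.

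Survival and death genes moved in both directions, with inhibitors of apoptosis and the caspase gene CASP8 among those higher and BH3-only genes among those lower. Of 25 members of the BCL2 family, the caspases and the inhibitors of apoptosis, 6 rose and 6 fell on the deposited values and 4 rose and 7 fell after quantile normalization. XIAP, which blocks caspases directly, had 8.38 and 10.7 FPKM in cKDmix, against 1.65 and 2.91 in c3NC (log2 fold change 1.70). BIRC2 had 16.3 and 18.7 FPKM in cKDmix, against 5.19 and 6.78 in c3NC (log2 fold change 1.41). BIRC3, its close relative, had 12.3 and 12.1 FPKM in cKDmix, against 3.42 and 5.42 in c3NC (log2 fold change 1.31). BMF, a BH3-only gene, had 0.58 and 0.75 FPKM in cKDmix, against 3.32 and 2.37 in c3NC (log2 fold change -1.20). BID, which links death receptors to mitochondria, had 30.1 and 25.1 FPKM in cKDmix, against 52.8 and 61.1 in c3NC (log2 fold change -1.02). BAD had 29.9 and 19.7 FPKM in cKDmix, against 41.2 and 41.9 in c3NC (log2 fold change -0.75). BIRC3 and BAD were chosen after their values were seen. CASP8 (24.25 and 20.67 FPKM in cKDmix, against 14 and 14.64 in c3NC) and BIRC6 were also chosen that way. Both were called higher but lost the call after quantile normalization, median ratio scaling and cyclic loess. Neither is in the counts of named genes, nor among the 12 below. Of 6 glutathione S-transferases tested, 0 rose and 3 fell under either scaling; the membrane-bound MGST1 had 207 and 176 FPKM in cKDmix, against 445 and 427 in c3NC (log2 fold change -1.19). MGST3 had 44.7 and 31.5 FPKM in cKDmix, against 98.5 and 83.3 in c3NC (log2 fold change -1.25). Of aldehyde dehydrogenases and aldo-keto reductases, 5 rose and 3 fell of 17 tested, with 2 and 3 after quantile normalization. ALDH2, the mitochondrial aldehyde dehydrogenase, had 83.02 and 72.8 FPKM in cKDmix, against 218 and 195 in c3NC (log2 fold change -1.40). ALDH3A2, which oxidises fatty aldehydes, had 13.7 and 13.8 FPKM in cKDmix, against 37.3 and 38.3 in c3NC (log2 fold change -1.39). ALDH5A1, of GABA breakdown, had 16.2 and 15.5 FPKM in cKDmix, against 7.15 and 7.12 in c3NC (log2 fold change 1.05). Of the retinoid pathway, 3 rose and 2 fell of 13 tested, with 1 and 3 after quantile normalization. RBP4, the plasma carrier of retinol, had 104 and 89.6 FPKM in cKDmix, against 250.4 and 259.9 in c3NC (log2 fold change -1.39). Of these 12 genes, all 12 lost their call when cKDmix replicate 2 was left out, 8 when its replicate 1 was, and 11 and 4 when c3NC replicates 1 and 2 were; limma's adjusted p reached 0.23 at most and every fold change kept its sign. BAD also lost the call with no filter on low values.

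In families of protein turnover and adhesion the share called higher on the deposited values was 40% of KLHL, KBTBD and BTBD proteins, 32.5% of ubiquitin-specific proteases, 29.03% of TRIM proteins, 23.4% of F-box proteins and 40% of cadherins, beside 28.1% of all genes. KLHL, KBTBD and BTBD proteins, adaptors of cullin ligases, had 14 higher and 0 lower of 35, and 5 and 4 after quantile normalization. Ubiquitin-specific proteases had 13 higher and 0 lower of 40, and 5 and 3; USP15 had 14.4 and 15.2 FPKM in cKDmix, against 3.63 and 5.34 in c3NC (log2 fold change 1.54). USP16 had 24.3 and 23.3 FPKM in cKDmix, against 6.68 and 8.08 in c3NC (log2 fold change 1.57). TRIM proteins had 9 higher and 0 lower of 31, and 2 and 0, with TRIM2 at 8.89 and 11.8 FPKM in cKDmix, against 1.99 and 2.45 in c3NC (log2 fold change 1.81). F-box proteins had 11 higher and 2 lower of 47, and 2 and 6. FBXW7, which marks MYC and cyclin E for degradation, had 6.99 and 5.95 FPKM in cKDmix, against 1.97 and 1.79 in c3NC (log2 fold change 1.37). Cadherins and protocadherins had 6 higher and 2 lower of 15, and 1 and 2; PCDH17 had 3.17 and 3.38 FPKM in cKDmix, against 0.47 and 0.67 in c3NC (log2 fold change 1.45). CDH4, a cadherin of retina and muscle, had 0.8 and 1.2 FPKM in cKDmix, against 8.18 and 8.54 in c3NC (log2 fold change -2.23). Of the septins, 3 rose and 1 fell of 9 tested, with 2 and 1 after quantile normalization; of the tRNA ligases, 10 rose and 2 fell of 39 tested, with 5 and 2 after quantile normalization. SEPT11 had 31.4 and 34.99 FPKM in cKDmix, against 11.7 and 9.29 in c3NC (log2 fold change 1.58). SEPT4 had 3.18 and 2.39 FPKM in cKDmix, against 5.28 and 5.46 in c3NC (log2 fold change -0.76). IARS had 44.8 and 54.5 FPKM in cKDmix, against 12.8 and 12.8 in c3NC (log2 fold change 1.87). KARS had 62.8 and 59.5 FPKM in cKDmix, against 123.52 and 136 in c3NC (log2 fold change -1.07). Of these 11 genes, all 11 lost their call when cKDmix replicate 2 was left out, 6 when its replicate 1 was, and 5 and 2 when c3NC replicates 1 and 2 were; limma's adjusted p reached 0.18 at most and every fold change kept its sign. SEPT4 also lost the call with no filter on low values.

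The c5NC library, the single control of the overexpression, offers a further set of control values, with no test. Of the 40 genes ranked in the 4 classes, c5NC lay nearer the c3NC mean than the cKDmix mean on the log2 scale in 27, in 16 of the 20 higher and in 11 of the 20 lower. Over all called genes c5NC lay nearer c3NC in 81.7% of the higher and 69.9% of the lower. These distances were taken on the deposited values only, for genes called because cKDmix and c3NC differed. The factors of median ratio scaling were 0.914 in c5NC, 0.889 and 0.887 in c3NC, and 1.148 and 1.166 in cKDmix. The part of scaling in this nearness was not tested, so the shares are not independent support for the calls. The 4 higher genes in which it lay nearer cKDmix were KLF5 (22.1 FPKM in c5NC), MET (13.95), TFPI (14.4) and KCNMB1 (13.02). The 9 lower ones were SFRP4 (145 FPKM), ITPR1 (6.62), GRIN3B (2.9), BDKRB2 (2.69), GDF10 (1.43), SCARA5 (1.18), BAMBI (1.06), KCNMA1 (0.38) and ABCC9 (4.29). PPARG, at 3.97 and 4.12 FPKM in cKDmix, against 0.5 and 0.39 in c3NC, stood at 40.1 FPKM in c5NC.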

How the data were processed

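RNA-seq was run on total RNA of 7 libraries, 4 of which are compared here. The deposited table gives 1 FPKM value per gene and library, made by the authors from their reads, per the file headers; for aligner, gene model, build, strandedness and scaling, the sources used here give nothing. Its 17374 identifiers were matched to symbols with a RefSeq gene table (assembly ARS1.2, names only): 17007 matched and 367 with a BGI_novel prefix did not.

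FPKM values are not counts, so limma 3.58.1 (R 4.3.3) was fitted to log2(FPKM + 1) of all 7 libraries with 1 mean per group, and eBayes with a trend; 3 residual and 4.72 prior degrees of freedom were left. The contrast was cKDmix minus c3NC (2 libraries each), two-sided, with Benjamini-Hochberg adjustment over the 11800 genes tested. A group of 1 library, as in c5NC or after leaving one out, is assumed to vary like the others. In 1 simulation the fit recovered 19 of 100 genes changed by 1 on the log2 scale and 71 of 100 changed by 2, with 5 false calls. The simulated libraries held no shift over all genes, unlike the real ones, so this says nothing about the scaling.

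Members and the 92 family and 8 marker lists were chosen with earlier results of these data known. Named per class and direction were up to 5 genes with the largest fold change that were called alike under 3 scalings, did not overlap between groups and averaged at least 2 FPKM in the higher group; 78 genes that earlier results had named, or that are immediate early genes, were counted and not ranked. Named per other list with at least 5 tested members were up to 2 called genes per direction by smallest p. Genes named beyond these rules are said to be so, members of the marker lists aside. Locus numbers without a gene symbol were not named. A few genes and 1 family that these rules select are not reported here. Alternatives were quantile, median ratio and cyclic loess scaling, a pseudocount of 0.1, 3 other filters (none, mean FPKM of at least 1, at least 5 FPKM in 2 libraries), no variance trend, only the 4 libraries, the replicate number as a block, and leaving out each library in turn.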

Additional observations from a re-analysis of the deposited data

How the results depend on the processing

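The fold changes of the single genes named here kept their sign in the alternatives, whereas the balance of higher and lower calls turned for transcription factors and receptors (42 receptors lower after quantile normalization and 40 after median ratio scaling). Counts are given as higher and lower in cKDmix. Quantile normalization, median ratio scaling and cyclic loess called 1434, 1829 and 1326 higher and 1468, 1940 and 1339 lower, with medians of -0.0166, -0.0186 and -0.0064. In the same order of scalings, transcription factors were called higher in 56, 86 and 51 and lower in 106, 104 and 101; receptors higher in 31, 32 and 27; secreted factors higher in 32 after quantile normalization and 28 after loess; and channels and transporters higher in 41, 55 and 36 and lower in 26, 29 and 26. With a minimum of 5 FPKM, 88 transcription factors and 29 secreted factors were higher. With only the 4 libraries, 6374 genes were called, 1572 of them lower; 246 transcription factors were higher and 88 lower, and 48 receptors, 29 secreted factors and 21 channels and transporters were lower.

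Leaving out each of the 6 replicated libraries in turn gave 51 to 4804 genes higher and 11 to 1577 lower. The ranges were 1 to 246 and 0 to 89 for transcription factors, 1 to 89 and 1 to 49 for receptors, 3 to 67 and 1 to 29 for secreted factors, and 5 to 145 and 2 to 21 for channels and transporters, the lowest without a cKDmix library and the highest without a cRNA28250 library, whose replicates differ most (SD of the log2 difference 0.584, against 0.303 in cKDmix and 0.297 in c3NC). Of the 40 ranked genes, 8 stayed called in all 6 of these fits and 36 in every other alternative in which they were tested. The exceptions were SCARA3 and KCNAB2 (no filter), MIF (loess) and GDF10 (pseudocount 0.1 and no filter). Calls after quantile normalization and median ratio scaling were a condition of the ranking, so those alternatives could show no exception. With the replicate number as a block 4149 genes were called, 3288 higher and 861 lower, 3950 of them shared with the fit without it; deviations of cKDmix and c3NC libraries with the same number correlated at 0.12, and the numbers are not said to pair the libraries. The cause of these shifts was not tested, and with 2 libraries per group the spread of single genes is poorly known.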
